A study of Mus musculus with 2 samples.

Results

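Prrc2a binding peaks that recurred in mouse brain but lay between annotated genes were examined. Both samples came from RNA immunoprecipitation followed by sequencing (RIP-seq) with an antibody to Prrc2a, a protein that binds RNA carrying N6-methyladenosine (m6A), in whole brains of wild-type C57BL/6J mice at 4 weeks of age. The labels give 2 replicates of this 1 condition and no treatment, and the sample protocol describes male brains without saying how they were divided between the replicates, so the spread between replicates may be partly technical. Each peak list gave a position on mm10 and a fold enrichment, which is the ratio of read density in the peak to the background set by the peak caller. No strand, control library or read depth came with the lists, so no counting interval could be given for a single enrichment value, and no comparison between conditions was possible.

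Of the 18129 peaks of replicate 1, 8372 (46.2%) shared at least 1 bp with a peak of the 18671 in replicate 2. Among these, 535 had a midpoint outside every gene span of GENCODE M21, and 31 of them were left out because they covered a start or stop codon of a protein-coding transcript. The remaining 504 peaks, 6.02% of all shared peaks, are the members described here. They were chosen by measured values, namely the presence of a peak in both lists, and by position, so neither their recurrence nor their place outside genes is a result. Before the overlap was required, 1391 peaks of replicate 1 met the 2 position rules, and 36.2% of these were shared, beside 46.2% of the whole list. The smallest overlap of a member with its replicate 2 peak was 1 bp, 23 members overlapped it by under 100 bp, and 15 of the 887 unshared peaks between genes lay within 100 bp of a replicate 2 peak, the nearest of them 11 bp away. At the gene boundary, 27 members had a midpoint up to 100 bp outside a gene, with median enrichments of 2.50 and 3.27 in the 2 replicates, and 30 shared peaks had a midpoint up to 100 bp inside one, with medians of 2.56 and 2.82.

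RNA that maps between annotated genes can come from several known sources. One is a longer 3′ end than the annotation holds, since neurons are known for alternative polyadenylation that extends transcripts far past the usual end. Others are upstream antisense and promoter-proximal transcripts, unannotated noncoding RNAs, and repeated genes that the assembly holds in part, such as the tandem array of 4.5S RNA genes. The 4.5S RNA is a short nuclear RNA of rodents, made by RNA polymerase III, whose first part resembles the B1 repeat. The m6A mark is deposited mostly at GGAC and related letters in RNA.

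The sequences that carry the main patterns are shown first, each on the plus strand of GRCm38 (mm10) unless stated, with GGAC on either strand in capitals (GTCC is GGAC on the minus strand). Each, other than the 4.5S RNA gene, is the centre of a member's overlap with its replicate 2 peak. The 3 array sequences are from the 3 members with the highest mean enrichment, which all lay in the 4.5S RNA array of chromosome 6. The sequences lie at chr6:47768620-47768859, chr6:47740284-47740523 and chr6:47740886-47741125. The first and the last carry the same stretch of 2 repeat units, which a reader can follow from the letters tgcccgtgttagcc onward.
Array 1: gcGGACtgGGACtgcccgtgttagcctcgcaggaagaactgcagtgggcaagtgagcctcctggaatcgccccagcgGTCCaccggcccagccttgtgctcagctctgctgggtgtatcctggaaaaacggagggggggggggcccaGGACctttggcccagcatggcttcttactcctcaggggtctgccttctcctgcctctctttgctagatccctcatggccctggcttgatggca
Array 2: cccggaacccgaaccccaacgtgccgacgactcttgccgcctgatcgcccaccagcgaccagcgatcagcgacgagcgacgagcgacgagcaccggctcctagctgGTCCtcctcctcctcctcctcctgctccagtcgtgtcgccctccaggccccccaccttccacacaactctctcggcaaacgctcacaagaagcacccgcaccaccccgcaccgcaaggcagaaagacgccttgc
Array 3: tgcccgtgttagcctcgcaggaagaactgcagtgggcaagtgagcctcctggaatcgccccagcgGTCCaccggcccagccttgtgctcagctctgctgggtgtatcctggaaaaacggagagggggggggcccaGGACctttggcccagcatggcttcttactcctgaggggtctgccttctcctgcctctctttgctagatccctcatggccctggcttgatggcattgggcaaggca
The 4.5S RNA gene of RefSeq itself (Rn4.5s, chr6:47654921-47655094, minus strand, 174 bp) is shown for comparison with the array peaks, none of which covered a copy of it, and it holds no GGAC on either strand.
Rn4.5s: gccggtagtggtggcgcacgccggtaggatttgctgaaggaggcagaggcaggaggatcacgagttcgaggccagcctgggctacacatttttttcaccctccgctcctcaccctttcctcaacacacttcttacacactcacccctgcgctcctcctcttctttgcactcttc
The next 4 are from the members with the highest mean enrichment outside the array that overlapped no exon in RefSeq. They lie at chr8:55068181-55068420 past the 3′ end of Gpm6a, at chr15:93847336-93847575 beside the lincRNA gene Gm49445, at chr15:79013395-79013634 beside the lincRNA gene Gm17753, and at chr15:98788604-98788843 before the start of Wnt1.
Past Gpm6a: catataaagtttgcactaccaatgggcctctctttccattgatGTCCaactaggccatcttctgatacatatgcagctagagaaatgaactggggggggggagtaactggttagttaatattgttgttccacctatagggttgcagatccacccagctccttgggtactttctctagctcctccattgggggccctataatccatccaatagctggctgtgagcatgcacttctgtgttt
Beside Gm49445: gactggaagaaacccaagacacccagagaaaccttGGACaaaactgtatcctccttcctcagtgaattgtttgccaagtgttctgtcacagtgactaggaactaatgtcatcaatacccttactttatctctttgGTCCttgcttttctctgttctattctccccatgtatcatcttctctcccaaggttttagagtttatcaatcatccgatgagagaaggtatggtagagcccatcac
Beside Gm17753: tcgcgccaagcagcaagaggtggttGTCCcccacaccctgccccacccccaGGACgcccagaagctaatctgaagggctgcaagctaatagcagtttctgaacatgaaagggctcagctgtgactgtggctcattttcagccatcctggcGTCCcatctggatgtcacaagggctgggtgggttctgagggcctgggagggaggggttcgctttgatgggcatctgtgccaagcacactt
Before Wnt1: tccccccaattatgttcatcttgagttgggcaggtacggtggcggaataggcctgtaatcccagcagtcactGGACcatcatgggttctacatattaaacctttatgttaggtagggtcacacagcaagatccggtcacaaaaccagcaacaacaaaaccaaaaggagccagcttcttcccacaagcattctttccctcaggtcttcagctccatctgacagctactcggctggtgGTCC

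The members were moderately enriched as a set. Fold enrichment in replicate 1 ran from 1.29 to 18.0 with a median of 2.95, and in replicate 2 from 1.30 to 55.5 with a median of 3.72. The value was higher in replicate 2 for 347 members (68.8%), beside 70.4% of all shared peaks, so the shift toward replicate 2 was general to the lists. Its median on the log2 scale was 0.27 with an SD of 0.64 across members, beside 0.25 and 0.53 across all 8372 shared peaks. Both replicates reached an enrichment of 4 or more at 116 members (23.0%), beside 8.62% of all shared peaks. The 2 replicates ranked the members in part alike, with a Spearman correlation of 0.56 across the 504 peaks and 0.58 across all shared peaks. These values describe peaks that share 2 libraries. Each member took its replicate 2 value from the peak of longest overlap, and further replicate 2 peaks under it were not counted. By this assignment 64 members shared their replicate 2 peak with another member, so the 504 replicate 2 values came from 470 distinct peaks.

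**Figure D1:**
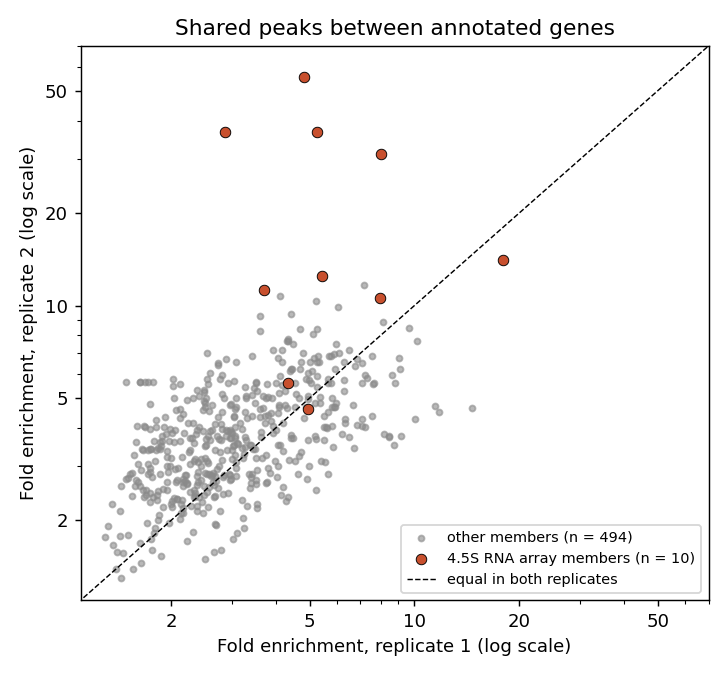
Each point is one of the 504 shared peaks between genes, with its fold enrichment in replicate 1 on the horizontal axis and in replicate 2 on the vertical axis, both logarithmic. The 10 peaks of the 4.5S RNA array (red) include the highest value of each replicate, 18.0 and 55.5, and 8 of them lie above the line of equal values.

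Members had higher enrichment values than shared peaks in exons. Median enrichment in replicate 1 was 2.95 for members, 2.26 for the 7138 shared peaks with an exonic midpoint and 3.28 for the 699 with an intronic one. Counted from the replicate 2 list, shared peaks between genes had a median of 3.68, exonic ones 2.77 and intronic ones 3.55, so only the order against exons was the same in both. The median width of members was 504 bp in replicate 1, beside 470 bp for exonic shared peaks, while from the replicate 2 list the order was turned, at 395 and 449 bp. The 887 replicate 1 peaks between genes that had no replicate 2 peak had a median enrichment of 3.72 over a median width of only 300 bp. In those unshared peaks, 43.9% carried an enrichment value that at least 10 peaks of the list had in common, while this held for 10.9% of members in replicate 1 and 19.2% in replicate 2. Only 33 members had such a value in both replicates. The widest member, 10790 bp, lay past Kcna4, and 37 members were wider than 2000 bp.

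Among the 504 members, the highest value of each replicate belonged to a group of 10 members in a run of 4.5S RNA gene units on chromosome 6. The 174 bp RefSeq gene Rn4.5s matched 17 places between chr6:47654921 and chr6:47778339, all on the minus strand, at identities from 94.2% to 100%, with 11 of them identical over the whole length. Starts of neighbouring copies were a median of 4337.5 bp apart, apart from one interval of 54596 bp that holds 50000 unsequenced bases of the assembly, with 8 copies before it and 9 after it. All 10 members lay after that interval. GENCODE M21 annotates no gene over them, and the nearest annotated gene was Rny3, a Y RNA gene, 6865 to 41008 bp away, while the nearest protein-coding gene was Pdia4, which encodes a protein disulfide isomerase. RefSeq places the lncRNA gene Gm52861 over the first 2 members only.

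The first of these peaks, chr6:47740256-47740615, was enriched 18.0-fold in replicate 1 and 14.0-fold in replicate 2. Its neighbour, chr6:47740800-47741210, had 8.02 and 31.2. The next 2, chr6:47749719-47750183 and chr6:47753240-47753478, were weaker, at 4.95 and 4.61 for the former and 4.32 and 5.62 for the latter. These 4 peaks were 1 cluster, and within it only the second peak differed between replicates by more than a log2 ratio of 1, with 1.96.

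The other 6 array members formed the second cluster. At chr6:47768014-47768318 the enrichment was 7.97-fold in replicate 1 and 10.6-fold in replicate 2. The peak at chr6:47768569-47768909 had 4.83 and 55.5, the latter the highest value of the whole replicate 2 list. The peak at chr6:47769488-47770103 had 3.71 and 11.2. In each of these 3 peaks replicate 2 was the higher, with log2 ratios of replicate 2 to replicate 1 of 0.41, 3.52 and 1.60. The peaks at chr6:47773071-47773401 and chr6:47773587-47773832 had 2.86 and 5.26 in replicate 1 and overlapped the same replicate 2 peak, with 36.8. The last peak, chr6:47774440-47774758, had 5.44 and 12.5. Over the whole array the median was 5.11 in replicate 1 and 13.3 in replicate 2, while the other 494 members had medians of 2.92 and 3.70. The replicates therefore gave the array very different weight, and the order of its peaks was not the same in both. Without the array, the SD of the log2 ratio between replicates was 0.59 instead of 0.64 and the Spearman correlation 0.55 instead of 0.56.

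None of the array peaks covered a copy of the 4.5S RNA. They began 285 to 2372 bp from the 5′ end of the copy before them, on its upstream side, and several recurred at the same place of the repeat unit. The 3 members beginning 285, 315 and 353 bp from a copy matched one another at 93.2% to 99.3% identity. Those beginning 829 and 908 bp from a copy, shown above as the last and the first array sequence, lay in an alignment at 99.5% identity. It was 411 bp long, of which 341 bp fell within the second of these 2 members. Of the 10 members, 9 had at least 1 further copy in the genome over at least 80% of their length at 90% identity or more, and 5 had 12 to 16 further copies within the array region alone. Only reads that mapped to 1 place with a quality of at least 20 were kept by the authors, so a read that matched several units equally well was left out. The part of this step in the values was not tested. The members at chr6:47773587-47773832 and chr6:47774440-47774758 were 98.4% and 100% repeat-masked, and replicate 1 had 2 further peaks in the array, with fold enrichments of 9.99 and 6.29, that had no replicate 2 peak.

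**Figure D2:**
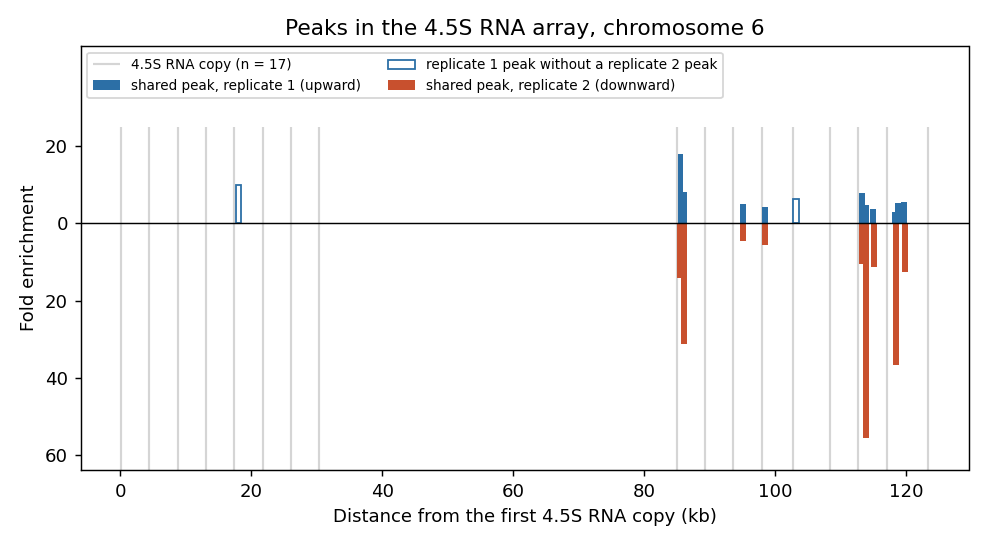
Peaks in the 4.5S RNA array of chromosome 6 by distance in kb from the first 4.5S RNA copy, with fold enrichment upward for replicate 1 (blue) and downward for replicate 2 (red), bars drawn wider than the peaks, and grey lines for the 17 copies. Shared peaks lie only among the 9 copies after the unsequenced interval, and the highest bars are 18.0 in replicate 1 and 55.5 in replicate 2.

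Outside the array, copies over at least 80% of a member were rare elsewhere in the genome. Only 18 of the 504 members had another place in the genome at 90% identity over 80% of their length, 9 of them in the array. Of the other 9, a peak at chr4:12136006-12136432 upstream of Rbm12b1 had 46 further places, with fold enrichments of 2.73 and 6.42. A peak past Zfp971, a zinc finger gene on chromosome 2, had 10, with fold enrichments of 1.67 and 2.38. A pair past the pseudogene Gm21769 on chromosome 8 had 7 and 6. The remaining 486 members had no second place by this measure, among them the array member chr6:47773071-47773401. The measure does not count shorter matches, so it leaves unknown how many reads within a peak fit several places.

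Most members lay close to a gene. The gap between the peak and the nearest gene had a median of 1330.5 bp and quartiles of 204.75 and 4148.75 bp, and it was 0 for 78 members, which reached into a gene with part of their length. Members within 10 kb of a gene numbered 459 (91.1%). Of the peaks between genes found in replicate 1 alone 79.3% lay that close, and of those found in replicate 2 alone 88.6%. Counted by midpoint, 90.7% lay within 10 kb, while 33.2% of the sequenced bases between genes lie that close. To the nearest protein-coding gene the median gap was 2523.5 bp, and 390 members (77.4%) had a protein-coding gene as the nearest of all. The others were nearest to 37 times a lincRNA, 23 times a processed pseudogene, 15 times a TEC locus (a locus still awaiting experimental evidence), 10 times a miscellaneous RNA and for the rest a small class.

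Members lay past the 3′ ends of genes more often than before their starts. Relative to the strand of the nearest gene, 312 members were downstream (61.9%, Wilson 95% interval 57.6 to 66.0%) and 192 upstream, beside 51.3% of the bases between genes that have a 3′ end as their nearest gene boundary. Neighbouring members share transcripts, so this interval, which covers counting error only, is too narrow. Of the peaks between genes found in replicate 1 alone 58.2% were downstream, and of those found in replicate 2 alone 72.6%. The share past 3′ ends was thus not particular to members. By gap, 57.9% of members lay within 10 kb downstream, beside 47.9% and 67.5% of those 2 sets. Among the 116 members with an enrichment of 4 or more in both replicates, 50% were downstream. The distance profiles of the 2 sides differed in shape. Downstream members had a median gap of 2111.5 bp and were most numerous 1 to 5 kb past the gene end, with 155 peaks. Upstream members had a median gap of 312.5 bp, 58 of them touched the gene and 68 more lay within 1 kb. By midpoint, 22.0% of all members lay within 1 kb upstream of a gene start, where 2.35% of the bases between genes lie, and 57.5% lay within 10 kb past a gene end, where 16.8% of those bases lie.

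**Figure D3:**
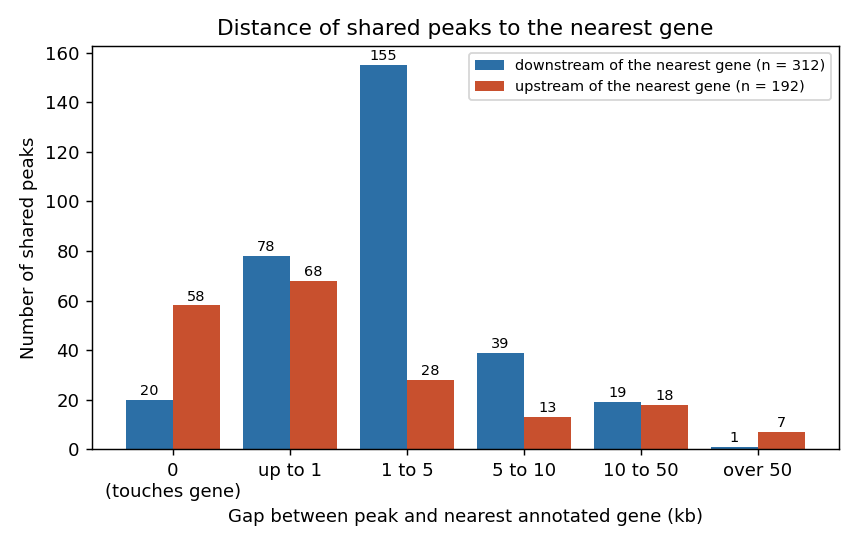
Number of shared peaks by the gap in kb between the peak and the nearest GENCODE M21 gene, for peaks downstream of the gene (blue, n = 312) and upstream of it (red, n = 192). Downstream peaks are most numerous between 1 and 5 kb, with 155, and upstream peaks at or within 1 kb of the gene, with 58 and 68.

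The 2 sides also differed in composition, a property the rule did not use. Upstream members had a median GC content of 56.6%, and downstream members 48.4%. Enrichment differed little, with medians of 3.20 in replicate 1 and 3.49 in replicate 2 upstream, and 2.80 and 3.76 downstream, so the order of the sides was not the same in both replicates. Widths were 525.5 bp upstream and 492 bp downstream. The members whose midpoint was nearest to a gene included 1 peak past the histone demethylase gene Kdm3b and peaks at the starts of Gprin1, Jakmip3 and Csgalnact1, all within 10 bp. The fold enrichments of these 4 were between 1.56 and 5.21 in replicate 1 and between 2.08 and 5.16 in replicate 2.

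The genes beside the members often carried shared Prrc2a peaks in their exons. For 324 members (64.3%) the nearest gene had another shared peak in an exon, members not counted, while 5.54% of all 55450 genes and 11.9% of the 21951 protein-coding genes had one. Among the 235 distinct protein-coding genes that were nearest to a member, 169 (71.9%) had such a peak. The share was 69.2% for downstream and 56.3% for upstream members. For peaks between genes found in replicate 1 alone it was 40.1%, and for those found in replicate 2 alone 29.3%. A shared exonic peak needs enough RNA in both libraries, as a member does, and no RNA level was available to separate these, so the part of RNA level in these shares was not tested.

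A second annotation, RefSeq, placed exons at most of the members. RefSeq had an exon at 296 of the 504 members (58.7%), at the midpoint for 259 (51.4%), and in a curated transcript for 141 (28.0%). In 237 cases (47.0%) the exon belonged to the nearest gene or the nearest protein-coding gene of GENCODE M21. In comparison, a RefSeq exon lay at 34.3% of unshared replicate 1 peaks between genes and 52.4% of unshared replicate 2 peaks. The 208 members without a RefSeq exon had median enrichments of 3.41 and 4.32 in the 2 replicates, beside 2.72 and 3.51 for the members with one, and a median gap to the nearest gene of 2012 bp beside 946 bp. The share past a 3′ end was near in both sets, 60.1% and 63.2%.

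Members came in runs. With neighbours up to 10 kb apart joined, the 504 members formed 93 clusters of at least 2 and 207 single peaks, and 297 members (58.9%) were in a cluster. Joined among themselves by the same rule, 66.0% of the 887 peaks between genes found in replicate 1 alone were in a cluster. For the 317 found in replicate 2 alone it was 46.4%, so runs were not particular to members. The median gap between neighbours within clusters was 307 bp. In 60 clusters every member was downstream of its nearest gene, in 18 every member was upstream, and 15 held both. In 71 clusters all members had the same nearest gene. Clusters of 4 or more numbered 27 and held 151 members.

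The largest cluster ran through the region past Xkr6, a gene of the XK-related membrane protein family. It held 20 members over 24313 bp of chromosome 14, from chr14:63821067 to chr14:63845379. Their replicate 2 values came from 15 distinct peaks, taking for each member the peak of longest overlap. GENCODE M21 ends Xkr6 at 63820809, but the RefSeq exon of Xkr6 goes on to 63845706, and all 20 members lay in it. Fold enrichment ran from 1.88 to 5.50 in replicate 1, with a median of 2.92, and from 2.95 to 5.62 in replicate 2, with a median of 3.91. The widest member of the run, chr14:63829472-63833396, had 5.50 and 4.02, and the last, chr14:63845162-63845379, had 1.88 and 3.62. The first 15 members had Xkr6 as nearest gene, 257 to 18587 bp from its end, and the last 5 had Pinx1, which encodes a telomerase inhibitor, 14984 to 19475 bp before its start. Both genes are on the plus strand. The downstream and upstream labels of this run thus fell within the same RefSeq gene. The exons of Xkr6 held 2 further shared peaks and those of Pinx1 none.

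**Figure D4:**
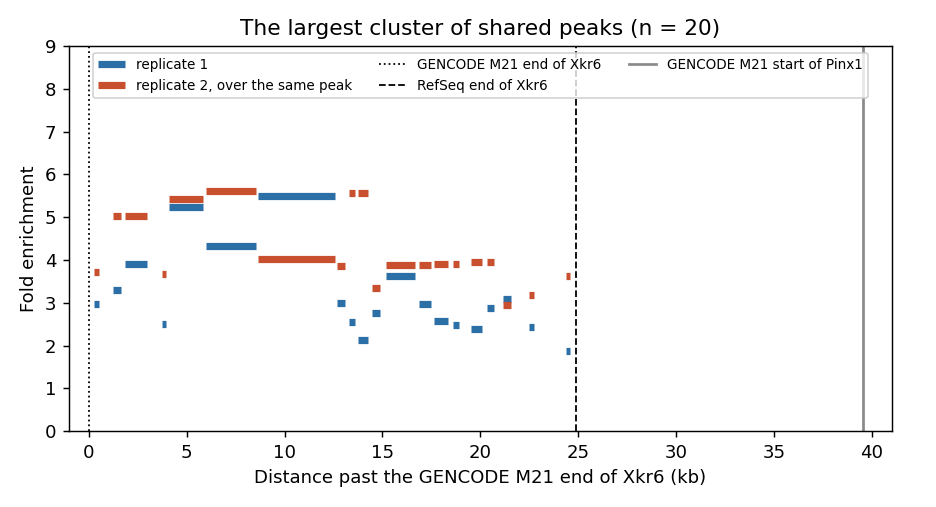
The 20 members of the largest cluster by distance in kb past the GENCODE M21 end of Xkr6, each drawn as a bar over its replicate 1 extent at its fold enrichment in replicate 1 (blue) and in replicate 2 (red). All 20 lie before the RefSeq end of Xkr6 (dashed), with values from 1.88 to 5.50 in replicate 1 and from 2.95 to 5.62 in replicate 2.

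The clusters next in size showed the same arrangement. Past Lingo2, which encodes a neuronal membrane protein with leucine-rich repeats, 8 members spread over 8471 bp with median enrichments of 3.80 and 4.46. Past Hipk2, a kinase of the homeodomain-interacting family, 8 members spread over 7413 bp, and here the replicates stood clearly apart, from 1.59 to 2.35 in replicate 1 and from 3.40 to 4.07 in replicate 2. Past Ppargc1b, a transcriptional coactivator of mitochondrial genes, 7 members spread over 5903 bp with medians of 2.46 and 2.29. Ppargc1b was the nearest gene of 5 of them. The members at chr18:61292479-61292739 and chr18:61292962-61294039 were nearer to Pde6a, 2554 and 3037 bp past its end, but in a RefSeq exon of Ppargc1b. All members of these 3 clusters were downstream of their nearest gene and in a RefSeq exon. The second cluster of the 4.5S RNA array, with 6 members, was the next by size and mean enrichment.

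Some genes had several members, though the 504 members had 317 distinct nearest genes. In all, 22 genes were the nearest gene of at least 4 members each, with 124 members between them, and at 17 of the 22 every member was downstream. At 13 genes every member lay in a RefSeq exon of that gene, which besides those above were Cdyl2, Snx29, Vash1, Acvr2b, Gm1043, Kcna4, Nt5c1a, Smad4 and Thnsl1. At 6 genes no member lay in any RefSeq exon. Another shared peak in an exon was present at 17 of the 22 genes and absent at Rny3, Pinx1, Snx29, Smad4 and Stn1.

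The 6 genes without a RefSeq exon at their members had members that neither annotation placed in an exon. Cnih3, an auxiliary subunit of AMPA-type glutamate receptors, had 6 members 77 to 9694 bp past its end, with median enrichments of 2.93 and 4.07 in the 2 replicates. Hs6st3, a heparan sulfate sulfotransferase, had 5 members 2102 to 10976 bp past its end, with medians of 2.32 and 4.15. Stn1, a subunit of a telomere-binding complex, had 4 members 76 to 5247 bp past its end, with medians of 2.81 and 4.23. In each of these 3 genes the replicate 2 median was the higher. St8sia5, a sialyltransferase of ganglioside synthesis, had 4 members with medians of 2.16 and 2.42, starting 896 bp past its end. Kcnk12, a potassium channel subunit, had 4 members from 1082 to 3659 bp past its end with enrichments from 1.63 to 1.77 in replicate 1, all of which overlapped 1 long replicate 2 peak with 5.66. Sowahb stood apart because its 5 members lay upstream, 1154 to 11576 bp before its start, with medians of 4.17 and 2.84.

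Kcna4, which encodes a voltage-gated potassium channel of neurons, had 2 of the 20 members with the highest mean enrichment, both past its 3′ end. Its widest, chr2:107300619-107311408, began 2116 bp past the gene and was enriched 14.6-fold in replicate 1. The replicate 2 peak with the longest overlap was 918 bp wide, lay inside it and had 4.64. The second, chr2:107312056-107314387, had 11.7 and 4.51. All 4 members at Kcna4 had the higher value in replicate 1, from 6.26 to 14.6 against 3.81 to 5.75, and were in the RefSeq exon of Kcna4. The exonic shared peaks of the gene in GENCODE, 2 in number, had medians of 4.24 and 4.17.

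Gpm6a, which encodes a membrane glycoprotein of neurons, had a run of 4 members starting 4711 bp past its end and going on to the TEC locus 9330121K16Rik. The first, chr8:55065583-55066071, had fold enrichments of 7.55 and 6.88, and the second, chr8:55067715-55070010, 8.13 and 8.82. They were 86.3% and 88.4% repeat-masked. No exon of Gpm6a in GENCODE held a shared peak.

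Neighbours of the members were also counted by gene family. Wnt1, a secreted ligand that patterns the midbrain and hindbrain, had 2 members upstream, at chr15:98788419-98789078 with 9.09 and 6.24 and at chr15:98784026-98784823 with 6.49 and 7.18, at 778 and 5033 bp from its start. Neither lay in a RefSeq exon. The 2 shared peaks in Wnt1 exons were stronger than these, with medians of 12.2 and 18.7. Genes of the Wnt and Fzd families were nearest to 0.40% of members, all at Wnt1, and make up 0.052% of all genes. Of the developmental transcription factor families searched, which make up 0.41% of all genes, Sox4 was nearest to 2 members (0.40%), both upstream, 4179 and 5704 bp away. Their fold enrichments were 7.24 and 4.02 for the nearer and 4.997 and 3.01 for the farther. Genes named Zfp, mostly zinc finger genes, were nearest to 10 members (1.98%), beside 0.76% of all genes. Histone genes, 0.19% of all genes, were nearest to no member, from which nothing can be read at this share. Predicted genes (Gm and Rik symbols) were nearest to 101 members (20.0%), beside 53.6% of all genes. These shares are not like for like. Of all 55450 genes 21951 are protein-coding, while 77.4% of members had a protein-coding gene as the nearest. No excess or lack of a family can therefore be read from them.

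The chromatin organizer gene Satb1 had 4 members upstream within 19370 bp of its start, interspersed with TEC loci. The strongest, chr17:51848964-51851405, was enriched 11.5-fold in replicate 1 and 4.72-fold in replicate 2. The 4 together ran from 4.54 to 11.5 in replicate 1 and from 4.26 to 5.62 in replicate 2. Plcl2, a phospholipase C-like protein, had a cluster of 6 past its end with medians of 3.98 and 4.88. Homer1, a scaffold protein of the postsynaptic density, had 4 members up to 4526 bp past its end with lower values, medians of 1.97 and 3.25.

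Noncoding neighbours included a microRNA host gene and a microRNA gene of the miR-124 family. A member at chr3:17784652-17787083, 2837 bp before the host gene of miR-124-2 (Mir124-2hg), had fold enrichments of 5.22 and 10.3, and a second at chr2:180893212-180893907, 132 bp before Mir124a-3, had 2.77 and 2.14. The miR-124 family is abundant in neurons. Past the lincRNA gene Gm17753 on chromosome 15 a member had 6.04 and 9.91, and its neighbour at chr15:79011355-79012716 had 4.11 and 10.8. At Gm49445 the value was 9.01 and 6.77. In 3 of these 5 peaks the higher value was that of replicate 2.

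Of the 20 members with the highest mean log2 enrichment, 7 were in the array, 6 were downstream of the nearest gene and 9 overlapped a RefSeq exon. The strongest outside the array was chr4:142410424-142411429, with 7.17 and 11.7, which lay 63948 bp from the nearest gene, Gm13052, in the RefSeq gene Gm42339. It was followed by peaks at the starts of Pnma2, a paraneoplastic Ma antigen, with 9.66 and 8.44, and of Sec24d, a subunit of the vesicle coat COPII, with 10.2 and 7.68.

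Few members lay far from genes. More than 50 kb from the nearest gene were 8 members (1.59%), beside 4.62% of the unshared replicate 1 peaks between genes and 1.58% of the unshared replicate 2 peaks. The farthest 2 were neighbours at chr15:74196845-74197663 and chr15:74197850-74198969, 102511 and 103516 bp from the pseudogene Gm15387, with fold enrichments of 7.07 and 6.52 for the former and 8.46 and 3.76 for the latter. Both overlapped the RefSeq gene Gm32918. A peak 75778 bp before Adgrb1, an adhesion receptor of neurons, had 4.34 and 7.65. A pair 68718 and 71747 bp from the pseudogene Gm7478 on chromosome 5 had 7.65 and 5.62, and 4.53 and 4.68. The last 3 of these 5 peaks lay in no RefSeq exon.

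The letters GGAC on either strand were present in 480 members (95.2%), beside 94.98% of exonic shared peaks and 88.3% of the narrower unshared replicate 1 peaks between genes. In a window of 100 bp around the midpoint, which removes the effect of width, 52.8% of members held GGAC, 57.7% of all shared peaks, 58.3% of exonic, 54.2% of intronic and 51.3% of the unshared peaks between genes. From the replicate 2 list the shares were 55.1% of shared peaks between genes, 57.3% of exonic, 50.8% of intronic and 50.8% of unshared peaks between genes, so the order against intronic peaks was not the same in both lists. GGACT was found in 349 members (69.2%). A match is a description of letters and says nothing about methylation or binding.

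Repeats made up a small part of most members. The median share of repeat-masked bases was 11.8%, beside 5.77% in exonic and 13.3% in unshared peaks between genes, and 79 members had none. From the replicate 2 list the order against unshared peaks was turned, at 10.4% for shared and 9.87% for unshared peaks between genes. In 47 members (9.33%) more than 50% of the bases were masked. A run of at least 15 A or T was present in 16 members (3.17%), beside 2.58% of intronic shared peaks and 1.35% of the unshared peaks between genes of replicate 1. Counted from the replicate 2 list, it was present in 0.37% of shared peaks between genes and in none of the unshared ones.

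As a check of the tissue, shared peaks in exons of marker genes were counted. Among neuronal markers 1 of 8 (Grin2b), among astrocyte markers 1 of 6 (Slc1a2) and among oligodendrocyte markers 1 of 8 (Olig2) had one. Of 6 pituitary hormone genes none did, and of all protein-coding genes 11.9% did. The lists are too short to be set apart from that share. A peak also marks enrichment and not abundance, so these counts identify no cell type and tell nothing about the tissue.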

How the data were processed

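Prrc2a RIP-seq of mouse whole brain was analysed from the authors' 2 peak lists, 1 per replicate. According to the study's methods, adapters were trimmed, reads under a length limit were discarded, the rest were aligned to mm10 with TopHat, reads that mapped to 1 place with a quality of 20 or more were kept, and regions were called with MACS2 at a false discovery rate below a fixed limit. The submitters' processing notes name TopHat2 2.0.9 and MACS2 2.0.10. The control library of the peak calling is not given in the sources used here. The deposited value is a fold enrichment, a ratio, with no counts, so depth and counting error are unknown. Fold changes between replicates are given on the log2 scale.

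Positions were read as counting from 1 with both ends included. A replicate 1 peak that overlapped a replicate 2 peak by at least 1 bp was shared, and its enrichment in replicate 2 is that of the replicate 2 peak with the longest overlap. Midpoints were placed against gene spans of GENCODE M21, and the gap to a gene is the number of bases between the 2. Repeat-masked bases, sequences and the RefSeq exons came from GRCm38.p6. Copies of members in the genome were sought with minimap2 2.31 and copies of the 4.5S RNA gene with blastn 2.17.0, and the rest was computed with Python 3.11.15, pandas 2.3.3 and scipy 1.17.1. The code was tested on simulated peaks.

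Members and gene lists were chosen with earlier results of these data known. The peaks named are the 20 with the highest mean log2 enrichment, the array of chromosome 6, the 5 largest clusters, the 5 peaks nearest to and the 5 farthest from a gene, and peaks at genes with at least 4 members or of the searched families. One of the peaks nearest to a gene is not reported here. Peaks near Homer1, Satb1, Mir124a-3, Rbm12b1, Gm21769 and the second peak at Gm17753 were named after their values were seen. No test between groups was possible with 1 condition. Alternatives were other overlap, enrichment, annotation and clustering rules and single replicates.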

Additional observations from a re-analysis of the deposited data

How the results depend on the processing

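No paired analysis was possible because the 2 samples belong to 1 group. The number of shared peaks between genes, 504, was 247 with an overlap of at least 50% of both peaks and 116 with an enrichment of 4 or more required in both. With peaks of a single replicate and no sharing it was between 858 and 1391. The stricter enrichment rule also gave a median enrichment of 5.64 instead of 3.31 (the geometric mean of both replicates), which its construction fixes, a median gap of 3530 bp to the nearest gene instead of 1330.5 bp, 41.4% of peaks in clusters instead of 58.9%, GGAC in 98.3%, a median of 16.2% repeat-masked bases and a RefSeq exon at 43.1%. It gave 50% of peaks downstream of the nearest gene instead of 61.9%, beside 51.3% of the bases between genes. Of these 116 peaks, 8 were in the 4.5S RNA array, whose members were all labelled upstream of Rny3. Whether the share past 3′ ends changes with enrichment was not tested.

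The median gap was 1745 bp with replicate 2 peaks counted, 2071 bp without peaks that reach into a gene, 1899 bp with pseudogenes and TEC loci removed from the annotation, 2523.5 bp to the nearest protein-coding gene and 1825 to 2289 bp with single replicates. The share in clusters was 41.3% with the 50% overlap, 64.3% with replicate 2 peaks counted and also without peaks that reach into a gene, 45.4% with neighbours joined up to 1 kb and 66.0% to 73.3% with single replicates. GGAC was found in 91.9% with replicate 2 peaks counted, in 94.6% without peaks that reach into a gene, in 52.8% within 100 bp of midpoints, and in 90.1% to 90.8% with single replicates, and GGACT in 69.2%. A RefSeq exon lay at 43.1% to 55.5% with single replicates. Leaving out the array, an alternative added after seeing the data, moved none of these measures by more than the spread between replicates. The cause of these shifts was not tested. Unknown depth leaves the precision of each enrichment value unknown.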

Other observations

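A few members lay beside genes of receptors and signalling proteins that were not described above. A peak at the start of Grm3, a metabotropic glutamate receptor, had fold enrichments of 6.76 in replicate 1 and 6.34 in replicate 2. A peak at the start of Htr5a, a serotonin receptor, had 7.31 and 5.82. A peak at the start of Kcng1, a modulatory potassium channel subunit, had 7.60 and 5.58. All 3 reached into the gene and overlapped a RefSeq exon of it, and all 3 had the higher value in replicate 1. Past the tyrosine kinase gene Src, at 5654 bp, a member had 5.77 and 6.87, with no RefSeq exon. These peaks were picked after their values were seen.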
